A study of Mus musculus with 25 samples.

Results

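The genes described here are 36 mouse genes of protein folding in the endoplasmic reticulum (ER) and of the unfolded protein response, the signalling that adjusts folding capacity to load. They were chosen by symbol, each matched to its Ensembl identifier, out of 18668 genes in the hepatocyte count table and 51912 in the immune cell table. All 36 were present in both tables, 36 passed the filter on low counts in hepatocytes, and 35 passed it in immune cells, where Derl3 did not. By role they were 9 stress sensors and transcription factors, 11 chaperones and co-chaperones, 4 disulphide isomerases, 9 genes of ER-associated degradation and 3 genes of the translocon.

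Secreted and membrane proteins enter the ER through the translocon, are folded by chaperones such as Hspa5 (BiP) and by disulphide isomerases, and are returned to the cytosol for degradation when folding fails. The sensors Ern1 (IRE1), Eif2ak3 (PERK) and Atf6 detect unfolded protein. Ern1 splices the Xbp1 mRNA, Eif2ak3 raises translation of Atf4, and Atf6 is cleaved to an active factor, and together they raise transcription of chaperones and degradation genes. Hepatocytes, the parenchymal cells of the liver, secrete most plasma proteins and are rich in ER.

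RNA was sequenced in bulk from cells sorted from perfused mouse liver (strain C57BL/6J 129SV, animal age not given in the sources used here), in 13 hepatocyte and 12 immune libraries. Hepatocytes of WT mice were taken 1 week after hydrodynamic tail vein injection, a rapid large-volume injection by which liver cells take up DNA. The plasmid carried GFP (n = 2) or IL6 (n = 3). Stat3_floxed mice received AAV-TBG-Cre, a virus in which the hepatocyte-restricted TBG promoter drives Cre and so deletes floxed Stat3. They were studied 2 weeks after the virus and 1 week after the IL6 plasmid (IL-6 STAT3KO, n = 3). Other Stat3_floxed mice ate DDC diet, a feed that injures the bile ducts, for 1 week and had received a virus 2 weeks before sampling. In the group called DDC (n = 2) it was AAV-TBG-GFP, and in the group called DDC STAT3KO (n = 3) it was AAV-TBG-Cre. No hepatocyte group was free of both plasmid and virus, and by the labels the GFP plasmid and IL-6 mice differ from all others in being WT and in having received no AAV. The 6 immune groups, n = 2 each, came from WT mice: macrophages on normal diet, and 5 groups after 1 week of DDC diet, namely neutrophils, T cells, macrophages, and monocytes with high or low Ly6C. The labels do not say that replicates are separate animals, so p-values measure the spread between these libraries.

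Library totals ran from 13625040 to 18428988 counts in hepatocytes and from 3817794 to 12945663 in immune cells. Stat3 itself had 109 and 98.9 CPM (counts scaled to a common library size) in the GFP plasmid libraries, 340 to 424 with IL-6, 96.0 to 116 in IL-6 STAT3KO, 112 and 150 in DDC and 56.3 to 87.3 in DDC STAT3KO; gene counts cover the whole gene and not the floxed exons alone. IL-6 replicate 3 stood apart, with 351 CPM of Il6 against 4.89 and 3.21 in its group, and Alb at 0.557% of counts against 6.45% and 2.99%. Its EGFP row held 7795 counts, against 117 and 93 in its group, 34 and 35 with the GFP plasmid, 22357 and 27571 in the DDC libraries, whose mice received AAV-TBG-GFP, and 0 to 23 in the groups given Cre. DDC STAT3KO replicate 3 also stood apart, with cholangiocyte markers at 6.44 CPM in sum against 258 and 241 in its group and 4.67 and 5.57 with GFP, and Kupffer markers at 45.0 against 290 and 349. Their weight in the counts of called genes is given beside them.

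An exact match to the ER stress response element (ERSE, CCAAT and CCACG with 9 bases between them, searched on both strands) lay in the promoter window of 9 of the 31 genes that have one. The window runs from 250 bases before to 50 after the RefSeq start (GRCm38.p6), and the same motif lay in 0.119% of 32851 mouse promoter windows of that length. The related ERSE-II (ATTGG and CCACG with 1 base between them), which does not overlap these matches, was found in Herpud1 and Dnajb11 and in 0.0365% of all windows. No window had the core of the unfolded protein response element (TGACGTGG, 0.676% of all windows) or an ATF4 composite core (TGATGNAAT, 0.965%). A STAT palindrome (TTCCNGGAA, 1.15% of all windows) was found in Eif2ak3, and its looser form TTCNNNGAA (8.3%), which includes it, in Eif2ak3 and Edem2. A match is a description of the letters and no evidence of binding.

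The stretches of 5 chaperone and isomerase genes show where and in which direction the element lies, with the fixed letters of each match in capitals and each stretch read 5′ to 3′ on the strand of its gene. The capitals are alike because the search required them, and the 9 bases between them differ from gene to gene. Hspa5 (chr2:34772020-34772048, forward strand) and Pdia6 (chr12:17266471-17266529, forward) hold it in the sense direction, at positions -65 and -98 from the start. Hsp90b1 holds 2 copies, and the distal copy at -212 is shown (chr10:86705618-86705676, reverse strand). In Calr (chr8:84847055-84847113, reverse) at -162 and Creld2 (chr15:88819500-88819558, forward) at -126 the match lies on the opposite strand, so that CGTGG comes before ATTGG. The stretch of Hspa5 is short because a longer one met an annotated exon. By the GENCODE annotation the gene starts at chr2:34771970, so the stretch lies inside the annotated gene.
Hspa5: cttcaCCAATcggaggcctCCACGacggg
Pdia6: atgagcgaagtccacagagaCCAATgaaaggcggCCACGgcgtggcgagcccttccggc
Hsp90b1: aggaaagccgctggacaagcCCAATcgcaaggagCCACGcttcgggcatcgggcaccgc
Calr: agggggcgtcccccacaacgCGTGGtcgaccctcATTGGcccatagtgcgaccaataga
Creld2: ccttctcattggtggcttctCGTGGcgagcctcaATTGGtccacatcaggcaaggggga

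The ERSE-II pair is shown because its genes went opposite ways with IL-6, and the stretch of Eif2ak3 because it holds the STAT palindrome. They lie at chr8:94386357-94386407 (Herpud1, forward, motif at -52), chr16:22857847-22857867 (Dnajb11, forward, motif at 8, inside the transcript) and chr6:70844366-70844414 (Eif2ak3, forward, motif at -129). Capitals mark the fixed letters of each motif.
Herpud1: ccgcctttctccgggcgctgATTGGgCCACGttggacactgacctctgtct
Dnajb11: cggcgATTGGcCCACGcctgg
Eif2ak3: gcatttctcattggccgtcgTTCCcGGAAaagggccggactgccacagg

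With the IL-6 plasmid, most ER folding genes stood above the GFP plasmid level and a pair of degradation genes stood far below it. By edgeR's quasi-likelihood test (adjusted p under 0.05 over all 14339 genes) 9 of the 36 rose and 2 fell, when 25.9% of all genes were called (13.7% higher, 12.2% lower). The share of members called was therefore close to that of all genes, and what set them apart was direction: the members' median log2 fold change was 0.61 against 0.04 over all genes, and 31 of 36 were positive. The genes that rose were Xbp1, Calr, Pdia4, P4hb, Dnajb11, Sdf2l1, Edem2, Sec61a1 and Ssr1, and those that fell were Herpud1 and Derl2. In 20 members every IL-6 library lay above both GFP libraries (31.5% of all genes), and in 3 every one lay below (29.2%). Leaving out IL-6 replicate 3 kept all 11 calls, whereas 6 remained without GFP replicate 1 and 3, Xbp1, Herpud1 and Derl2, without GFP replicate 2; DESeq2 called 17. In bulk samples, fewer cells of a type and less RNA per cell cannot be told apart.

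Deletion of Stat3 in hepatocytes under the same plasmid went with the reverse pattern. Of the 36 genes, 18 were lower and 2 higher in IL-6 STAT3KO than in IL-6, when 26.4% of all genes were called (13.4% lower, 13.0% higher), and the members' median was -0.78 against 0.00. Both higher genes were Herpud1 and Derl2, the pair that fell with IL-6. In 25 members every STAT3KO library lay below all IL-6 libraries (22.9% of all genes), and in 2 every one lay above (22.0%). Leaving out 1 library gave 12 calls without IL-6 STAT3KO replicate 1, 13 without its replicate 3 and 14 or 15 without any 1 of the others, with 14 when IL-6 replicate 3 was left out. Xbp1, Hspa5, Calr, Manf, Sdf2l1, Dnajb11, Pdia4, Edem2, Sec61a1 and Ssr1 passed with any of these 6 libraries left out. The 2 comparisons share the IL-6 libraries, and the groups of the second also differ in genotype and AAV. They differ in Il6 itself as well, which stood at 0.743, 0.559 and 1.05 CPM in IL-6 STAT3KO against 4.89, 3.21 and 351 with IL-6, without overlap, and at 0 and 0.0688 with GFP. A lower Il6 level and the loss of Stat3 cannot be told apart in this comparison.

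**Figure D1:**
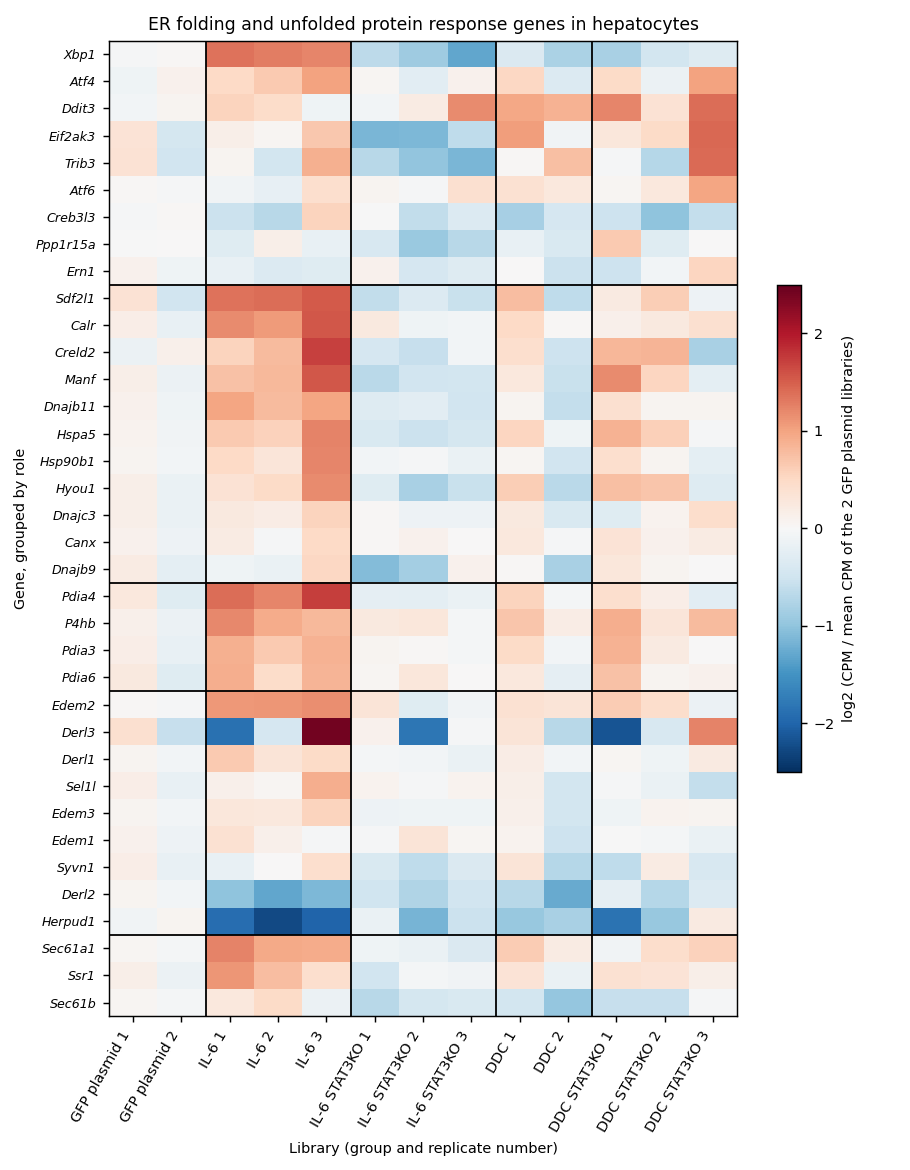
Each column is 1 hepatocyte library and each row 1 of the 36 genes, grouped by role and ordered by the IL-6 change; colour is the log2 ratio of CPM to the mean of the 2 GFP plasmid libraries. The 3 IL-6 columns are red for most chaperones and isomerases and blue for Herpud1 and Derl2, and the DDC columns differ between replicates.

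Xbp1, the transcription factor made active by Ern1 splicing, moved most clearly among the sensors and factors (chr11:5520659-5525893, forward strand, GRCm38). Its level was 289 and 303 CPM in the GFP plasmid libraries, 756, 717 and 690 with IL-6, and 189, 159 and 121 in IL-6 STAT3KO. The 3 groups did not overlap, and STAT3KO was the lowest. Xbp1 rose with IL-6 by 1.28 ± 0.25 on the log2 scale (± SE throughout, 2.44-fold, adjusted p = 0.00277). It was lower in IL-6 STAT3KO than in IL-6 by a log2 fold change of -2.20 ± 0.22 (4.60-fold, adjusted p = 3.29e-05). Gene counts do not separate the spliced from the unspliced Xbp1 mRNA.

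Of the other 8 sensors and factors none passed the test for IL-6 against GFP, and Eif2ak3 alone passed it for STAT3KO. Eif2ak3, the kinase PERK, stood at 33.2 and 19.5 CPM with GFP, 29.1, 27.4 and 42.2 with IL-6, and 11.9, 12.1 and 17.0 in IL-6 STAT3KO, where it was lower than in IL-6 (log2 fold change -1.27 ± 0.37, adjusted p = 0.0242). Its GFP and IL-6 libraries overlapped. Atf4, the factor of the PERK arm that is controlled mostly at translation, stood at 73.8 and 86.1 CPM with GFP, 113, 126 and 160 with IL-6 and 66.7 to 86.1 in IL-6 STAT3KO. The IL-6 libraries lay above all the others, but neither the change of 0.73 ± 0.33 (adjusted p = 0.123) nor that of -0.76 ± 0.29 (adjusted p = 0.075) passed.

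Ddit3 (CHOP), a factor of prolonged ER stress, was low throughout, at 8.90 and 9.84 CPM with GFP, 13.8, 12.9 and 8.67 with IL-6 and 8.92, 10.8 and 21.2 in IL-6 STAT3KO. These groups overlapped, and the log2 fold changes were 0.33 ± 0.39 (adjusted p = 0.563) and 0.21 ± 0.34 (adjusted p = 0.692). Ddit3 shares exon sequence with Mars on the opposite strand, and whether counting used strand is not given in the sources used here. Creb3l3, a liver-enriched ER-bound factor, stood at 410 and 424 CPM with GFP and at 289, 259 and 616 with IL-6, on either side of the GFP level, with a change of -0.10 ± 0.35 (adjusted p = 0.857). Ern1 lay between 87.6 and 126 CPM in these 3 groups.

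All 11 chaperones and co-chaperones had a positive change with IL-6, and 3 passed the test. Their summed level was 3250 and 3860 CPM with GFP, 5330 to 8100 with IL-6 and 3000 to 3320 in IL-6 STAT3KO, where 8 of 11 were lower than in IL-6. Calr (calreticulin), a lectin chaperone of new glycoproteins, stood at 903 and 703 CPM with GFP, 1830, 1680 and 2360 with IL-6, and 955, 746 and 763 in IL-6 STAT3KO. All IL-6 libraries lay above the rest, while the STAT3KO and GFP libraries overlapped. Calr rose by 1.28 ± 0.26 (adjusted p = 0.00409) and was lower in STAT3KO (-1.25 ± 0.23, adjusted p = 0.00187).

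Sdf2l1, which acts with Hspa5 and its J-domain partners, was much scarcer, at 35.3 and 19.9 CPM with GFP, 70.3, 72.6 and 79.9 with IL-6 and 18.1, 21.9 and 18.7 in IL-6 STAT3KO. The IL-6 libraries again lay above all others, with changes of 1.43 ± 0.37 (adjusted p = 0.0149) and -1.92 ± 0.33 (adjusted p = 0.00122). Dnajb11, a J-domain partner of Hspa5, stood at 113 and 96.9, then 209, 182 and 208, then 83.9, 87.7 and 74.9 CPM in the same order of groups. The 3 groups did not overlap, and Dnajb11 changed by 0.93 ± 0.22 (adjusted p = 0.00873) and -1.28 ± 0.19 (adjusted p = 0.000515).

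Hspa5, the master chaperone of the ER, stood at 1030 and 921 CPM with GFP, 1530, 1450 and 2320 with IL-6 and 753, 674 and 722 in IL-6 STAT3KO. The groups did not overlap, yet the change with IL-6 (0.86 ± 0.32, adjusted p = 0.067) missed the threshold and only the lower level in STAT3KO passed it (-1.30 ± 0.28, adjusted p = 0.0055); DESeq2 called both. IL-6 replicate 3 was the highest library for Hspa5, as for 21 of the 36 genes in its group.

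Manf and Creld2, small secreted ER proteins, and Hyou1, a large relative of the heat shock chaperones, followed the same course as Hspa5. Manf stood at 64.9 and 53.0 CPM with GFP, 98.0, 104 and 174 with IL-6 and 37.1, 42.1 and 43.0 in IL-6 STAT3KO. Creld2 stood at 43.2 and 52.4, then 70.2, 82.4 and 156, then 35.7, 32.1 and 45.5 CPM. In both genes the IL-6 libraries lay above all others. Neither passed for IL-6 (1.09 ± 0.39 and 1.10 ± 0.48, adjusted p = 0.0589 and 0.111), and both were lower in STAT3KO (-1.62 ± 0.35 and -1.44 ± 0.42, adjusted p = 0.00485 and 0.025). Hyou1 (-1.27 ± 0.37) and Hsp90b1 (-0.82 ± 0.27), the ER form of the Hsp90 chaperone, also passed in STAT3KO, although Creld2, Hyou1 and Hsp90b1 did not without IL-6 replicate 3 or without 1 of several STAT3KO replicates. Canx, the membrane-bound relative of Calr, did not pass in either comparison, nor did Dnajb9 or Dnajc3. Manf exons overlap Rbm15b on the same strand, and Dcaf1 and 4930524O07Rik on the opposite strand. Those of Hsp90b1 overlap Gm15344 and Gm25745 on the same strand and 1810014B01Rik on the opposite strand. Pdia4 exons overlap Mir704 on the same strand. Opposite-strand overlaps are also annotated for Pdia3 (Catsper2), Pdia6 (Atp6v1c2), Sec61a1 (Gm44170), Eif2ak3 (Gm43292), Syvn1 (Mrpl49), Dnajb9 (Mir5627) and Ppp1r15a (Tulp2).

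The 4 disulphide isomerases, which form and rearrange disulphide bonds, summed to 2110 and 2720 CPM with GFP, 4330 to 5250 with IL-6 and 2340 to 2760 in IL-6 STAT3KO. Pdia4 stood at 225 and 152 CPM with GFP, 495, 441 and 627 with IL-6 and 162, 160 and 169 in STAT3KO. All IL-6 libraries lay above the others. It rose by 1.47 ± 0.29 (2.76-fold, adjusted p = 0.00315) and was lower in STAT3KO (-1.67 ± 0.25, adjusted p = 0.000503).

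P4hb, the most abundant isomerase, stood at 1460 and 1200 CPM with GFP, 3070, 2540 and 2330 with IL-6 and 1580, 1610 and 1280 in STAT3KO. It rose with IL-6 (0.99 ± 0.28, adjusted p = 0.0208) and was lower in STAT3KO (-0.83 ± 0.24, adjusted p = 0.0249). Pdia3, the partner of calreticulin, passed in STAT3KO (-0.79 ± 0.25, adjusted p = 0.0333), a call lost with any of the 6 libraries left out, and narrowly missed with IL-6 (0.81 ± 0.28, adjusted p = 0.0523). Pdia6 passed in neither (0.76 ± 0.29 and -0.63 ± 0.25), though its IL-6 libraries lay above all of its GFP and STAT3KO libraries.

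The degradation genes were split. Herpud1, a membrane protein that organises the degradation complex and a classic target of the unfolded protein response, was the third highest of the 36 per exon length with the GFP plasmid. It stood at 603 and 672 CPM there, 170, 134 and 160 with IL-6, and 569, 285 and 440 in IL-6 STAT3KO. All IL-6 libraries lay below all the others. Herpud1 fell with IL-6 by a log2 fold change of -2.04 ± 0.46 (4.11-fold, adjusted p = 0.00693) and was higher in STAT3KO by 1.48 ± 0.42 (adjusted p = 0.0217).

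Derl2, a derlin of the channel through which substrates leave the ER, stood at 148 and 134 CPM with GFP, 70.1, 57.5 and 64.6 with IL-6 and 100, 83.7 and 101 in IL-6 STAT3KO. The IL-6 libraries were lowest and the STAT3KO libraries lay between the other groups. It fell with IL-6 (-1.14 ± 0.21, adjusted p = 0.00221) and was higher in STAT3KO (0.57 ± 0.19, adjusted p = 0.0437). The calls of Herpud1 and Derl2 in STAT3KO were both lost without IL-6 replicate 1 or 2 or IL-6 STAT3KO replicate 1 or 3, and that of Derl2 also without IL-6 replicate 3, while their falls with IL-6 passed with any library left out. Derl2 exons overlap Mis12 on the opposite strand.

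Edem2, which trims mannose from misfolded glycoproteins, went the other way, from 63.8 and 61.6 CPM with GFP to 133, 134 and 140 with IL-6 and back to 78.3, 50.6 and 59.2 in STAT3KO. It rose by 1.11 ± 0.24 (adjusted p = 0.00593) and was lower in STAT3KO (-1.11 ± 0.21, adjusted p = 0.00245). Its relatives Edem1 and Edem3 and the ubiquitin ligase genes Syvn1 and Sel1l passed in neither comparison. Derl1 passed only in STAT3KO (-0.59 ± 0.16, adjusted p = 0.0191), and Derl3 never exceeded 9.23 CPM in any hepatocyte library.

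The translocon genes followed the chaperones. Sec61a1, the channel subunit, stood at 168 and 156 CPM with GFP, 385, 314 and 310 with IL-6 and 150, 145 and 126 in IL-6 STAT3KO. The 3 groups did not overlap, and Sec61a1 changed by 1.05 ± 0.24 (adjusted p = 0.00726) and -1.26 ± 0.21 (adjusted p = 0.000985). Ssr1, a subunit of the translocon-associated TRAP complex, rose (0.79 ± 0.25, adjusted p = 0.0371) and was lower in STAT3KO (-0.98 ± 0.22, adjusted p = 0.00666), and Sec61b passed only in STAT3KO (-0.71 ± 0.21, adjusted p = 0.027).

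**Figure D2:**
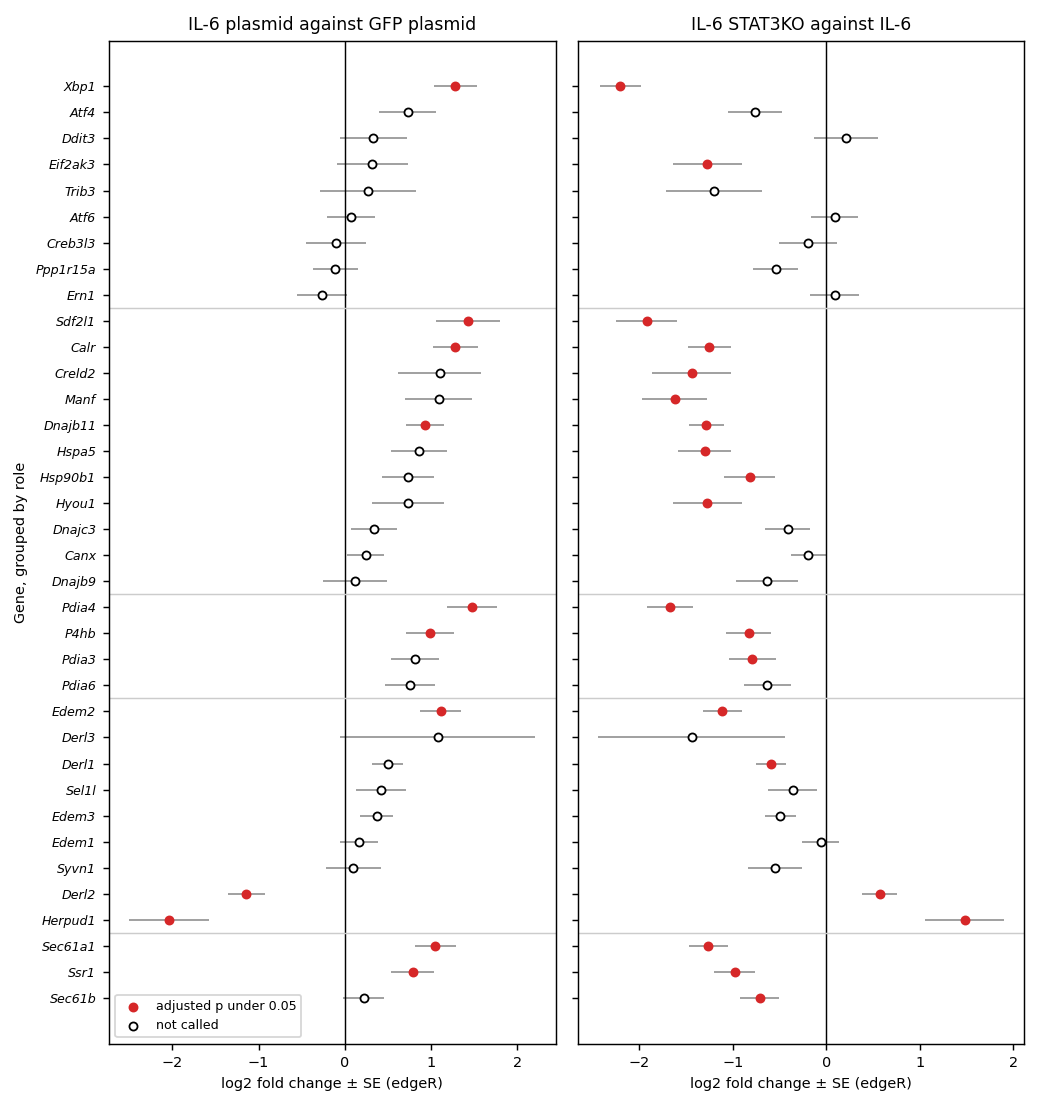
Points are edgeR log2 fold changes of the 36 genes and bars their SE, for IL-6 against GFP plasmid (left) and IL-6 STAT3KO against IL-6 (right); filled points passed an adjusted p under 0.05. On the left 9 filled points lie to the right of 0 and 2, Derl2 and Herpud1, to the left; on the right 18 lie to the left and the same 2 to the right.

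Per kilobase of exon, the order of the levels also differed between the groups. The length takes in every annotated exon of a gene and not only those of the mRNA expressed here, so the order between genes is approximate. With the GFP plasmid P4hb was highest (465 ± 66.0 CPM per kb, SD, n = 2), then Calr (279 ± 48.9), Herpud1 (273 ± 20.8) and Hspa5 (230 ± 17.7), and Calr and Herpud1 did not differ beyond their spread. With IL-6 the first 3 were P4hb (926 ± 133, n = 3), Calr (678 ± 124) and Hspa5 (418 ± 114), while Herpud1 (66.4 ± 8.05) stood 15th and Xbp1 (222 ± 10.3) moved from 9th to 5th. Derl3 was lowest in both, at 0.872 and 1.84 CPM per kb.

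Genes with an ERSE match did not stand out from the other members by their calls. With IL-6 all 9 had a positive change (median 0.76) and 1, Calr, passed; of the 20 with a window and neither ERSE nor ERSE-II, 16 were positive (median 0.35), 6 rose and 1 fell. In IL-6 STAT3KO against IL-6 all 9 were negative (median -0.82) and 4 passed, against 17 of 20 negative (median -0.74) and 9 lower and 1 higher. Of the ERSE-II pair shown above, Dnajb11 rose and Herpud1 fell with IL-6. These differences between motif groups were not tested.

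Several other measures moved with the IL-6 groups, and their part in the result was not tested. Mitochondrial genes took 2.05 to 2.76% of counts with IL-6, 5.56 and 5.60% with GFP and 4.16 to 5.92% in IL-6 STAT3KO. Markers of some other cell types were higher with IL-6 than with GFP in every library: the 4 cholangiocyte markers in the table (which include Sox9 and Spp1) summed to 2200 to 10800 CPM against 4.67 and 5.57, with Krt7 and Epcam at 0 in GFP. Krt7 was also at 0 in IL-6 replicates 1 and 3. The 7 Kupffer markers summed to 60.8 to 142 CPM against 24.6 and 30.3, and the 5 neutrophil markers to 1.25 to 25.8 against 0 in both GFP libraries. Endothelial, stellate, monocyte and T cell lists overlapped between the groups. Endothelial markers stood at 29.1 to 112 CPM against 99.5 and 116, and stellate markers at 46.1 to 110 against 75.5 and 62.6. Monocyte markers stood at 23.5 to 37.7 against 20.9 and 29.1, and T cell markers at 0.863 to 1.06 against 1.02 and 0.482. The 9 hepatocyte markers summed to 109000 to 210000 CPM against 94000 and 97500, without overlap, although 2 were called higher and 4 lower. Plasma and B cells are rich in ER, and 6 of their 10 listed markers were among the genes counted. These summed to 2.00 to 6.16 CPM with IL-6 and 0.896 and 0.963 with GFP, without overlap. In IL-6 STAT3KO the cholangiocyte markers summed to 6.87 to 48.9 CPM and the Kupffer markers to 97.5 to 226.

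Lists of the wider ER machinery, which hold none of the 36 genes, are set beside the same shares of all genes called (13.7% higher and 12.2% lower with IL-6, 13.0% higher and 13.4% lower in STAT3KO). Of 30 other folding genes 12 rose with IL-6 and none fell (median 0.70 against 0.04 over all genes), led by Dnajc10 (2.02 ± 0.32, adjusted p = 0.000858), an ER reductase, and Qsox1 (2.21 ± 0.36, adjusted p = 0.00109), a sulfhydryl oxidase; in IL-6 STAT3KO 18 were lower and none higher, with Dnajc10 at -1.92 ± 0.27 and Pdia5 at -1.69 ± 0.24. Of 32 other translocon, signal peptidase and glycosylation genes 8 rose with IL-6 and none fell (median 0.42), and 16 were lower and 1 higher in STAT3KO, where Ssr2 of the TRAP complex changed by -1.11 ± 0.18. Of 30 ER to Golgi transport genes 7 rose and 2 fell with IL-6 (median 0.35), and 8 were lower and 1 higher in STAT3KO (median -0.20). Kdelr3, a receptor that returns proteins to the ER, had the smallest adjusted p of the 7 (0.00252, by edgeR), but its counts with GFP were too few for a fold; in STAT3KO it was lower than in IL-6 by -4.51 ± 0.82 (adjusted p = 0.00185). Copg1, a subunit of the COPI vesicle coat, rose by 0.82 ± 0.19 (adjusted p = 0.00846), a call lost without either GFP replicate. In STAT3KO Tmed9, a cargo receptor of the same vesicles, led with -1.65 ± 0.24 (adjusted p = 0.000472).

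Degradation genes outside the 36 were again split, with 1 of 24 higher and 1 lower under IL-6 (Faf2 at 0.50 ± 0.15 and Rnf5 at -1.21 ± 0.22), 13 of 24 positive and a median of 0.02 against 0.04 over all genes, and 4 higher and 3 lower in STAT3KO. Of 32 targets of ATF4 and the integrated stress response 15 rose with IL-6 and none fell (median 0.96), among them the tryptophanyl tRNA synthetase Wars (2.15 ± 0.20, adjusted p = 4.03e-05), although Atf4, Ddit3 and Trib3 did not pass. In STAT3KO 16 of these were lower and 1 higher, with Wars at -2.03 ± 0.17.

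Compared with the GFP plasmid, IL-6 STAT3KO hepatocytes showed no called member. These groups differ in plasmid, genotype and AAV together. edgeR called 0 of 36, when 3.12% of all genes were called (2.26% higher, 0.865% lower), with 4 members at an unadjusted p under 0.05, all of them lower, and DESeq2 called 1. The members' median was -0.21 against 0.02 over all genes. In 14 members all 3 STAT3KO libraries lay below both GFP libraries (22.4% of all genes) and in 0 all lay above (22.2%). Xbp1 came nearest, 121 to 189 CPM against 289 and 303, with a change of -0.92 ± 0.23 (adjusted p = 0.055). Hspa5 changed by -0.44 ± 0.31 (adjusted p = 0.472), Herpud1 by -0.56 ± 0.46 (0.542), Creb3l3 by -0.31 ± 0.35 (0.679), Atf4 by -0.03 ± 0.32 (0.981) and Ddit3 by 0.54 ± 0.39 (0.479). Kupffer markers summed to 97.5, 226 and 156 CPM in IL-6 STAT3KO against 24.6 and 30.3 with GFP (0 of 7 called). Every other marker list but the endothelial and stellate ones also summed higher without overlap. Their part in the result was not tested.

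**Figure D3:**
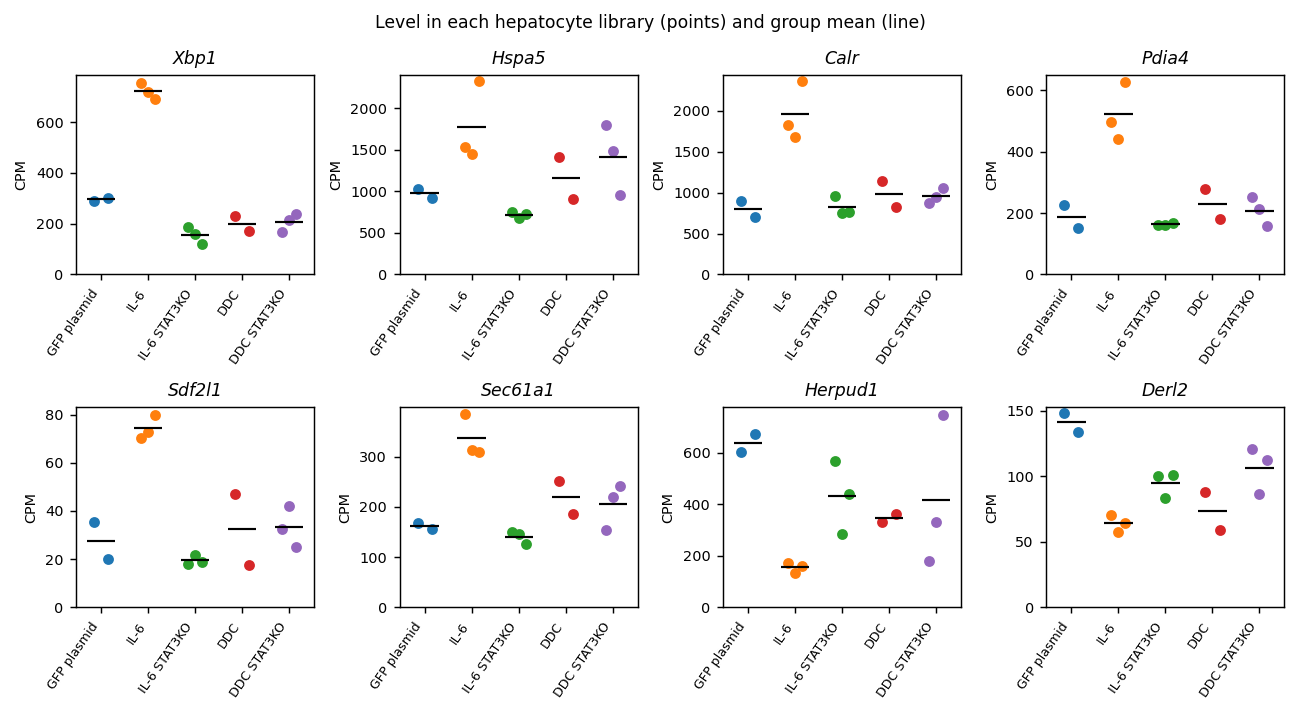
CPM of 8 of the genes in each hepatocyte library (points) and the group mean (line), with each axis starting at 0. For Xbp1, Hspa5, Calr, Pdia4, Sdf2l1 and Sec61a1 the IL-6 group has the highest mean, and for Herpud1 and Derl2 the lowest; Herpud1 in DDC STAT3KO ranges from 178 to 745.

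Under DDC diet the members' median stood close to the GFP plasmid level. In DDC against GFP 1 of 36 fell and none rose, when 18.6% of all genes were called (10.4% higher, 8.29% lower), and the median log2 fold change was 0.04 against 0.02 over all genes, with 4 at an unadjusted p under 0.05. In 5 members both DDC libraries lay above both GFP libraries (36.5% of all genes) and in 6 below (34.8%). The gene that fell was Derl2, at 87.7 and 59.1 CPM against 148 and 134 (-0.94 ± 0.23, adjusted p = 0.0181). Its groups did not overlap, but the call was lost without DDC replicate 2 or either GFP replicate. DDC replicate 1 lay above replicate 2 for 33 of the 36 genes, as with Hspa5 at 1410 and 909 CPM or Hyou1 at 307 and 125. These groups differ in genotype, AAV and plasmid as well as diet. Markers of other cell types moved with them: Kupffer markers summed to 247 and 393 CPM in DDC against 24.6 and 30.3 with GFP (7 of 7 called higher), cholangiocyte markers to 519 and 569 against 4.67 and 5.57 (3 of 3 tested), monocyte markers to 47.1 and 89.0 against 20.9 and 29.1 (3 of 5) and stellate markers to 176 and 297 against 75.5 and 62.6 (0 of 4). Endothelial markers (156 and 134 against 99.5 and 116, 0 of 4) and neutrophil markers (0.371 and 1.16 against 0 in both, 0 of 5 tested) were also higher without overlap. Their part in the result was not tested.

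Among the sensors under DDC, Ddit3 stood at 18.4 and 17.2 CPM against 8.90 and 9.84 with GFP, without overlap, and did not pass (0.93 ± 0.42, adjusted p = 0.137). Xbp1 stood at 229 and 171 CPM (-0.57 ± 0.26, adjusted p = 0.14) and Herpud1 at 332 and 362 (-0.88 ± 0.51, adjusted p = 0.239), both below GFP in every library and neither past the threshold. Hspa5 (0.25 ± 0.34, adjusted p = 0.639), Atf4 (0.15 ± 0.36, 0.798) and Creb3l3 (-0.61 ± 0.38, 0.278) did not pass. Among genes outside the 36, 11 of 32 ATF4 and stress response targets rose in DDC and 1 fell, among them Psat1 (4.23 ± 0.79, adjusted p = 0.00537), an enzyme of serine synthesis, while of 30 other folding genes 1 rose and 1 fell.

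Deletion of Stat3 under DDC changed none of the 36 genes past the threshold. edgeR called 0 members and 0.0% of all genes, with 1 member, Derl2, at an unadjusted p under 0.05 (0.54 ± 0.21, adjusted p = 0.853), and DESeq2 called 0 members. Of the 36 changes, 29 were positive, 10 of the 11 chaperones among them, and the members' median was 0.18 against 0.01 over all genes. In 1 member, Dnajb11, every DDC STAT3KO library lay above both DDC libraries (9.35% of all genes), though only by less than the rounding, at 138, 110 and 110 CPM against 110 and 69.3. Xbp1 stood at 168, 215 and 237 CPM in DDC STAT3KO against 229 and 171 in DDC, which overlap (0.05 ± 0.24, adjusted p = 0.979). Hspa5 stood at 1790, 1480 and 952 against 1410 and 909, which overlap too (0.28 ± 0.32, adjusted p = 0.893). The changes of Atf4 (0.37 ± 0.33), Ddit3 (0.13 ± 0.38), Herpud1 (0.27 ± 0.46) and Creb3l3 (-0.08 ± 0.35) did not pass either, with adjusted p from 0.867 to 0.978. Herpud1 in DDC STAT3KO spread from 178 CPM in replicate 1 over 329 in replicate 2 to 745 in replicate 3, against 332 and 362 in DDC. Replicate 3 is the library with low cholangiocyte and Kupffer markers described above, and replicate 1 had 2.03% mitochondrial counts against 5.38 and 5.26% in the others. Without replicate 3 there were still 0 calls. Cholangiocyte markers summed to 258, 241 and 6.44 CPM in DDC STAT3KO against 519 and 569 in DDC, without overlap, while the other marker lists overlapped. Their part in the result was not tested.

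Against the GFP plasmid, DDC STAT3KO had 0 of 36 members called by edgeR, when 15.9% of all genes were called (8.5% higher, 7.39% lower), with 3 at an unadjusted p under 0.05 and 2 called by DESeq2; without DDC STAT3KO replicate 2 or replicate 3 edgeR called 1. The members' median was 0.20 against 0.06 over all genes, and 28 of 36 were positive. In 4 members all DDC STAT3KO libraries lay above both GFP libraries (22.3% of all genes) and in 3 below (22.7%). Ddit3 changed by 1.06 ± 0.39 (adjusted p = 0.0864), Hspa5 by 0.53 ± 0.32 (0.268), Xbp1 by -0.52 ± 0.23 (0.148), Herpud1 by -0.61 ± 0.46 (0.375), Atf4 by 0.52 ± 0.33 (0.295) and Creb3l3 by -0.69 ± 0.34 (0.187). These groups also differ in genotype, AAV and plasmid as well as diet. Of the markers of other cell types, 7 of 7 Kupffer, 2 of 3 cholangiocyte and 3 of 5 monocyte markers tested were called higher. None of the endothelial or stellate markers was called. The part of these cells in the result was not tested.

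The difference between the effects of Stat3 deletion under IL-6 and under DDC was tested directly, with an interaction term over libraries that the arms do not share. The effect was more negative under IL-6 in 8 of the 36 genes and more positive in none, when 8.28% of all genes were called (4.08% negative, 4.2% positive), and the members' median difference was -1.07 against -0.02. The 8 were Manf (-2.31 ± 0.52, adjusted p = 0.0187), Xbp1 (-2.25 ± 0.32, adjusted p = 0.00169), Sdf2l1 (-1.96 ± 0.49), Dnajb11 (-1.70 ± 0.29, adjusted p = 0.00451), Hspa5 (-1.58 ± 0.43), Pdia4 (-1.53 ± 0.37), Calr (-1.22 ± 0.34) and Sec61a1 (-1.16 ± 0.31). Herpud1 (1.21 ± 0.61, adjusted p = 0.258), Atf4 (-1.13 ± 0.44, 0.14), Creb3l3 (-0.13 ± 0.47, 0.91) and Ddit3 (0.08 ± 0.51, 0.948) did not pass. The exons of Manf overlap those of Rbm15b and other genes, and those of Pdia4 and Sec61a1 also overlap another gene, as given above.

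The count of 8 depended on single libraries. It was 2 without DDC replicate 2, 3 without IL-6 STAT3KO replicate 3, 4 without IL-6 replicate 1 or 2, IL-6 STAT3KO replicate 1 or 2, or DDC STAT3KO replicate 2, 8 without IL-6 replicate 3, 6 without DDC or DDC STAT3KO replicate 1, and 12 without DDC STAT3KO replicate 3. Xbp1 and Dnajb11 passed with any library left out, and Manf with any but DDC replicate 2. In the IL-6 arm the controls were WT without AAV and the deleted mice Stat3_floxed with AAV, while in the DDC arm both were Stat3_floxed with AAV, so the kind of stimulus and the match of the controls cannot be told apart. Il6 also differed within the IL-6 arm, as given above, and was at 0 to 0.0446 CPM in the DDC arm.

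**Figure D4:**
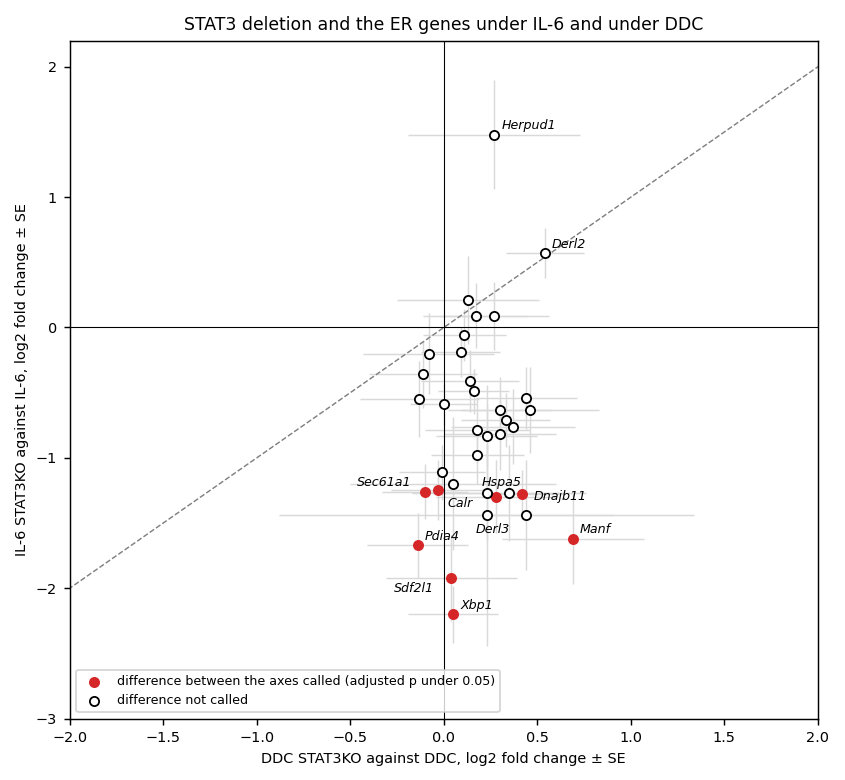
Each point is 1 of the 36 genes, with its log2 fold change for Stat3 deletion under DDC on the horizontal axis and under IL-6 on the vertical axis, bars giving the SE and the dashed line equal effects. The 8 filled genes, whose difference passed the test, lie below the line between -1.25 and -2.20 on the vertical axis, and Derl2 lies close to it.

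In macrophages the same genes stood higher on DDC than on normal diet, but none passed the test. The 36 genes summed to 9520 and 9160 CPM on DDC and 3540 and 4010 on normal diet, without overlap; as a plain share of counts they took 0.755 and 0.743% against 0.559 and 0.478%. Of the 35 tested, 30 had a positive change and the median was 0.97 against -0.62 over all genes. edgeR called 0, when 0.0252% of all genes were called, with 16 at an unadjusted p under 0.05, all of them higher, and DESeq2 called 3. In 26 members both DDC libraries lay above both normal libraries (23.4% of all genes) and in 2 below (32.3%). With library totals in place of TMM scaling the members' median was 0.19 and that of all genes -1.42, so both shifted by about the same amount.

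Sdf2l1 stood at 516 and 481 CPM in DDC macrophages and 92.7 and 125 on normal diet (2.19 ± 0.56, adjusted p = 0.304). Xbp1 stood at 263 and 271 against 71.9 and 69.1 (1.92 ± 0.53, adjusted p = 0.325), and Calr at 1290 and 1270 against 453 and 399 (1.59 ± 0.46, adjusted p = 0.353). In each the 2 groups did not overlap. The TMM factors were 0.794 and 0.812 on DDC and 1.59 and 1.2 on normal diet. The CPM therefore lie further apart between the diets than plain shares of counts do. Herpud1, unlike in hepatocytes under IL-6, stood with the chaperones, at 199 and 174 CPM against 71.2 and 38.7 (1.76 ± 0.61, adjusted p = 0.432). Atf4 did not, at 82.6 and 81.9 against 93.7 and 121 (-0.38 ± 0.47, adjusted p = 0.727).

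Marker lists of other cell types also differed between the diets, and their part in the result was not tested. Summed endothelial markers were lower on DDC, at 420 and 404 CPM against 1570 and 1360. Higher there without overlap were the markers of Kupffer cells (33400 and 27200 against 15900 and 23900), monocytes (2530 and 3500 against 1360 and 2400), cholangiocytes (100 and 83.4 against 4.80 and 11.9) and stellate cells (679 and 444 against 166 and 173). Those of neutrophils (292 and 206 against 30.1 and 25.1) and T cells (107 and 70.2 against 44.7 and 31.4) were higher without overlap too. Hepatocyte markers (4510 and 499 against 459 and 671) and plasma and B cell markers (410 and 109 against 112 and 136) overlapped.

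**Figure D5:**
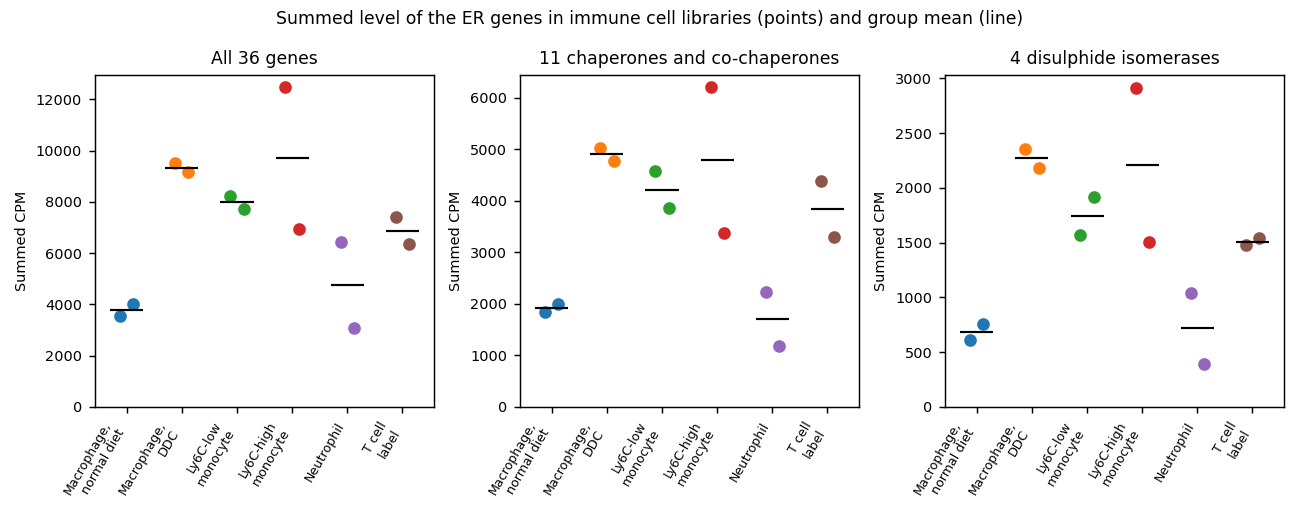
Summed CPM of all 36 genes, the 11 chaperones and the 4 disulphide isomerases in each immune library (points), with the group mean (line) and axes from 0. Macrophages on normal diet lie at 3540 and 4010 for all genes and those on DDC at 9520 and 9160; Ly6C-high monocyte replicates lie at 12500 and 6930.

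Among the DDC immune cells, neutrophils had the lowest summed chaperone level, at 2230 and 1180 CPM, although the chaperone gene Dnajb9 had its highest group mean there (68.5 CPM). Against the mean of both monocyte groups, 3 of 35 genes were lower in neutrophils and none higher, when 1.67% of all genes were called (1.24% higher, 0.436% lower). In 15 members both neutrophil libraries lay below all 4 monocyte libraries (13.8% of all genes) and in 3 above (9.58%). Hsp90b1 stood at 181 and 64.2 CPM in neutrophils and 499 to 802 in the 4 monocyte libraries (-2.36 ± 0.50, adjusted p = 0.0198). Sdf2l1 stood at 118 and 39.3 against 339 to 676 (-2.57 ± 0.53, adjusted p = 0.0164), and Calr at 369 and 216 against 919 to 1210 (-1.82 ± 0.43, adjusted p = 0.0372). None of the 3 overlapped between the cell types, and Calr lost its call without neutrophil replicate 2 or Ly6C-low replicate 1. Of the marker lists, 4 of 4 endothelial, 4 of 7 Kupffer, 4 of 6 neutrophil and 1 of 7 T cell markers were called higher in neutrophils. Of the monocyte markers 2 of 5 were called lower. The part of other cells in the result was not tested.

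Ddit3 went the other way without passing, at 342 and 92.8 CPM in neutrophils against 35.7 to 82.7 in monocytes (1.98 ± 0.53, adjusted p = 0.0732). Neutrophil replicate 2 was the shallowest library, at 3817794 counts, with 19.0% of them on the single gene Gm10800, and replicate 1 was the higher of the pair for 32 of the 36 genes. The count of called members was 14 without neutrophil replicate 1, 5 without Ly6C-high replicate 2 and 3 or 4 without any of the others, and 0 in a fit of these groups alone.

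Macrophages differed from monocytes in 1 member, when 0.731% of all genes were called. Creb3l3 was higher in DDC macrophages (adjusted p = 0.0362 by edgeR), at 36.6 and 7.34 CPM, with 6.23 and 6.11 in Ly6C-low and 0.299 and 0.23 in Ly6C-high monocytes. The Ly6C-high values rest on 2 counts in each library, too few for a fold. The call was lost without macrophage replicate 1 or any of the 4 monocyte libraries. Creb3l3 is enriched in liver, and the hepatocyte markers summed to 4510 and 499 CPM in the same macrophage libraries and 71.4 to 1260 in monocytes; their part in the result was not tested.

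In the libraries labelled T cells edgeR called 0 of 35 against monocytes, when 1.66% of all genes were called (1.26% higher, 0.4% lower), with 5 at an unadjusted p under 0.05, and DESeq2 called 3; without T cell replicate 2 edgeR called 4. The 7 T cell markers summed to 290 and 304 CPM there, the highest of the 6 groups, beside 4730 and 7860 CPM of Kupffer markers. Hepatocyte markers summed to 8400 and 4990 CPM in these libraries, stellate markers to 957 and 1090 and endothelial markers to 903 and 1010. The part of these other cells in the result was not tested. Between Ly6C-high and Ly6C-low monocytes edgeR called 0 members and 0.0% of all genes, with 2 members at an unadjusted p under 0.05, and DESeq2 called 0. Ly6C-high replicate 1 lay above replicate 2 for 29 of the 36 genes, with Xbp1 at 843 and 313 CPM. Their TMM factors were 0.649 and 0.984, and Gm10800 took 8.85 and 4.15% of their counts. As a plain share of counts the 36 genes took 0.807 and 0.68%, closer together than their CPM.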

How the data were processed

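The authors deposited 2 tables of raw counts per gene, 1 for hepatocytes and 1 for immune cells. Per the submitters' processing notes, STAR, HTSeq, DESeq2 and the mm10 build were used; neither their versions nor a strand setting for counting is given in the sources used here. RNA came from sorted cells and went into TruSeq libraries, per the labels' protocols. Symbols, positions and exon lengths came from GENCODE M21 (GRCm38). An EGFP row entered neither library sizes nor tests, and 0 columns were left unmatched.

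Each table was fitted as a whole in R 4.3.3 with edgeR 4.0.16 (quasi-likelihood F test, TMM scaling, filterByExpr by group, 1 term per group, no covariate), which left 14339 hepatocyte genes (8 residual degrees of freedom) and 27759 immune genes (6). Genes whose p, adjusted by Benjamini-Hochberg across the whole table, was under 0.05 were called, and every adjusted p here is from edgeR unless DESeq2 1.42.0 is named. CPM are on TMM-scaled library sizes, and the SE is the log2 fold change divided by the square root of F, so approximate. The code was tested on simulated counts.

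Every called member could be named, with Xbp1, Hspa5, Atf4, Ddit3, Herpud1 and Creb3l3 in each hepatocyte comparison, and up to 2 called genes with the smallest adjusted p per other list; further members with values were chosen after these were seen. The members and lists were chosen with earlier results of these data known. Alternatives were other scalings, no filter, a replicate block, only the compared groups, DESeq2, each library left out, and IL-6 replicate 3 with DDC STAT3KO replicate 3 left out. Promoter windows were taken from RefSeq (GRCm38.p6); Manf, Derl1, Atf6, Hyou1 and Sec61a1 had no window.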

Additional observations from a re-analysis of the deposited data

Results flagged for a closer look

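The effect of Stat3 deletion differed between IL-6 and DDC in 8 genes by the interaction test. The differences (IL-6 minus DDC, log2) were -2.25 for Xbp1, -1.58 for Hspa5, -1.22 for Calr, -1.53 for Pdia4, -1.70 for Dnajb11, -1.96 for Sdf2l1, -2.31 for Manf and -1.16 for Sec61a1. In the EGFP row, which no comparison used, IL-6 replicate 3 had 7795 counts, while the other IL-6 libraries had 117 and 93 and the GFP plasmid libraries 34 and 35. The DDC libraries, whose mice received AAV-TBG-GFP, had 22357 and 27571, and the libraries of the groups given AAV-TBG-Cre 0 to 23.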

How the results depend on the processing

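Of the counts of called members, these moved by more than 1.5 times. DESeq2 called 17 in IL-6 against GFP (11 by edgeR), 1 in IL-6 STAT3KO against GFP (0), 2 in DDC STAT3KO against GFP (0), 15 in the interaction (8), 3 in macrophages on DDC against normal diet (0), 8 in neutrophils against monocytes (3) and 3 in T cells against monocytes (0). Library totals without TMM, which moved the median of all genes from 0.04 to -0.18 in IL-6 against GFP, gave 1 in IL-6 STAT3KO against GFP, 2 in DDC STAT3KO against GFP, 3 in the interaction and 6 in neutrophils; median-of-ratios factors gave 6 in neutrophils. No filter gave 5 in the interaction, 2 in macrophages on DDC against normal diet and 7 in neutrophils. A fit of only the compared groups gave 1 in IL-6 STAT3KO against GFP, 4 in DDC against GFP, 5 in the interaction, 6 in macrophages by diet and 0 in neutrophils. The cause of these shifts was not tested.

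With each library left out in turn the counts ranged from 3 to 11 between IL-6 and GFP, 12 to 18 between IL-6 STAT3KO and IL-6, 0 to 1 in IL-6 STAT3KO against GFP, 0 to 1 in DDC against GFP, 0 to 5 in DDC STAT3KO against GFP, 2 to 13 in the interaction, 0 to 1 in macrophages against monocytes, 3 to 14 in neutrophils and 0 to 4 in T cells; the values 18, 5 and 13 came from leaving out IL-6 replicate 3 with DDC STAT3KO replicate 3.

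Single genes that changed sign were all uncalled. In DDC STAT3KO against DDC, library totals gave -0.01 for Xbp1, and the ranges over left-out libraries were -0.16 to 0.28 for Xbp1, -0.45 to 0.63 for Herpud1, -0.08 to 0.37 for Ddit3, -0.26 to 0.13 for Creb3l3, -0.01 to 0.64 for Hspa5 and -0.01 to 0.87 for Atf4. In the interaction the ranges were -0.39 to 0.32 for Ddit3 and -0.35 to 0.43 for Creb3l3, which library totals put at 0.18. Between IL-6 and GFP Creb3l3 ranged from -0.61 to 0.13, and from -0.43 to 0.31 between IL-6 STAT3KO and IL-6, where library totals gave 0.01 and Ddit3 ranged from -0.26 to 0.44. Atf4 ranged from -0.13 to 0.10 in IL-6 STAT3KO against GFP and from -0.34 to 0.53 in DDC against GFP, where Hspa5 ranged from -0.10 to 0.54.

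Same-numbered libraries did not deviate together (correlations of deviations from -0.159 to 0.318 in hepatocytes and -0.126 to 0.135 in immune cells), so the numbers were not taken to pair the samples. With the replicate number as a block, 13 members were called for IL-6 and GFP, 21 for IL-6 STAT3KO and IL-6, 8 in the interaction and 4 in neutrophils. The block turned Herpud1 to -0.06 and Ddit3 to -0.04 in DDC STAT3KO against DDC, and Creb3l3 to 0.13 in the interaction.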
